A study of Mus musculus with 6 samples.

Results

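MDSCs from the spleens of aged Tnfr2-/- mice were compared with MDSCs from the spleens of aged Tnfr1-/- mice, so that cells without one receptor of TNF-α were set against cells without the other. Myeloid-derived suppressor cells (MDSCs) are immature myeloid cells that carry CD11b and Gr-1 and restrain T cells. The comparison took 4 of the 6 mRNA-seq samples of the study, 2 from each knockout, and all 8191 genes of the deposited table. The other 2 samples, of aged WT mice, only helped to estimate the spread between replicates. All mice were on a BALB/c background and 18 to 24 months old, the MDSCs of 5 mice were pooled for each sample, and the cells were isolated from the spleen without culture. A purchased isolation kit was used, purity was checked as CD45+Gr1+CD11b+ cells, and the labels describe sorted cells without treatment. Each knockout lacks its receptor in every cell of the mouse, so the cells around the MDSCs differed in genotype as well. Nothing in the labels says that 2 samples of a genotype differ in anything but the pool of mice and the experiment, so the spread between them may be partly technical.

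TNF-α is an inflammatory cytokine that acts through TNFR1 and TNFR2. TNFR1 is found on nearly all cells and has a death domain, whereas TNFR2, encoded by Tnfrsf1b, is found mainly on leukocytes and endothelium and is preferentially engaged by membrane-bound TNF-α. Both receptors reach the transcription factor NF-κB through TRAF adaptors, and NF-κB induces the gene of its own inhibitor, Nfkbia. Splenic MDSCs comprise monocytic and granulocytic cells, which share their markers with monocytes and neutrophils, and monocytic cells can mature into macrophages and dendritic cells.

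In the MDSCs of Tnfr2-/- mice, genes of monocytes and macrophages were higher than in those of Tnfr1-/- mice, among them Ccr2, F13a1, Cd68, Apoe, and Trem2. Genes of T cells, B cells, and eosinophils were mostly lower, among them Il7r, Cd27, Cxcr3, and Ear6, and Cd27 lies 0.12 Mb from the gene of TNFR1. The 2 plasma cell markers analysed were higher. Of the 8191 genes, 119 (1.45%) passed the test, 69 (0.842%) higher and 50 (0.61%) lower in Tnfr2-/- MDSCs. The test was that of limma on log2(FPKM + 1) over all 6 samples, two-sided, and a gene passed where its p-value, adjusted after Benjamini and Hochberg, was under 0.05 and its means were over 1.5-fold apart. FPKM are fragments scaled to the length of the transcript and to all fragments of the sample, and every difference below is Tnfr2-/- minus Tnfr1-/- on the log2(FPKM + 1) scale, which understates the change of low genes. All 119 genes had samples that did not overlap between the knockouts. This alone is common. Of the 8191 genes, both Tnfr2-/- samples lay above both Tnfr1-/- samples for 2858 and below them for 1318.

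These calls rest on few samples. With only the 4 knockout samples in the limma model, 0 genes passed, 1436 genes had an unadjusted p-value under 0.05, and the lowest adjusted p-value was 0.0730. All 119 genes were among the 1436, but both fits rest on the same knockout values, so this is no separate check. When a block for replicate numbers was added to the model of all 6 samples, 7 genes passed. Without Tnfr2-/- replicate 1, 662 genes passed, 535 of them higher, whereas 2 passed without Tnfr2-/- replicate 2, 2 and 3 without Tnfr1-/- replicates 1 and 2, and 6 without either WT replicate. In the last 5 of these fits and in that of the 4 knockout samples, no member of any of the 49 gene lists below passed. The smallest two-sided p-value that an exact permutation of 2 and 2 samples allows is 0.333. The table also holds only genes that the authors' own test over the 3 genotypes had picked, so every p-value given here is too small to be read as that of an unselected gene.

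A second measure, which uses no WT value and no test, was therefore set beside each call. A gene was counted as set apart where both samples of one knockout lay above both samples of the other and the mean difference was beyond a fold of 1.5. In all, 441 genes (5.38%) were set apart, 286 (3.49%) higher and 155 (1.89%) lower in Tnfr2-/- MDSCs. These shares, and those of the calls (0.842% higher and 0.61% lower), are the background for the counts of every list below. The median difference of all genes was 0.06, and 5166 genes were higher against 2867 lower. The sum over all genes was 134343 and 133604 FPKM for Tnfr1-/- and 148956 and 155248 FPKM for Tnfr2-/- MDSCs. Median-ratio scaling moved the median difference to -0.02 and turned the balance of the calls, to 89 higher and 119 lower, and that of the genes set apart, to 193 higher and 260 lower. Quantile normalization gave 121 higher and 117 lower calls, and 203 higher and 216 lower genes set apart. The balance of higher over lower genes is thus that of the deposited scale only. Replicates of Tnfr2-/- were farther apart than those of Tnfr1-/-, with a replicate SD over all genes of 0.219 against 0.139 on the log2 scale. That of WT was 0.0789, and since the WT samples enter the limma model, they lower the spread behind the SEs and adjusted p-values given below. The depth behind each value is unknown.

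**Figure D1:**
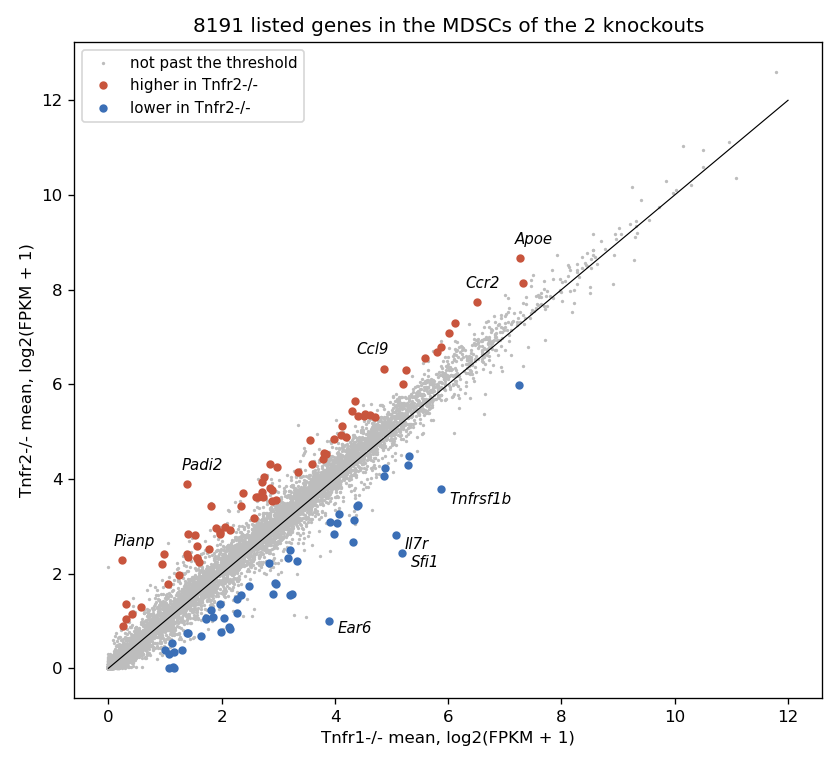
Mean level of each of the 8191 genes in the MDSCs of both knockouts, as log2(FPKM + 1), with Tnfr1-/- on the horizontal and Tnfr2-/- on the vertical axis. Each point is a gene, the line marks equal levels, and the colored points are the 69 genes that were higher and the 50 that were lower past the threshold.

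The deleted gene was checked first. Tnfrsf1b (chromosome 4, 145213463 to 145246870, minus strand of GRCm38) was at 47.8 and 69.6 FPKM in Tnfr1-/- and 11.3 and 14.3 FPKM in Tnfr2-/- MDSCs. It fell by 2.09 (SE 0.21, adjusted p = 0.0310), a 4.58-fold lower mean, and the groups did not overlap, as the Tnfr2-/- labels require. It was not at 0 in Tnfr2-/- MDSCs, and which part of the transcript the remaining fragments came from cannot be seen in a value per gene. Without the WT samples in the model its adjusted p-value was 0.157, and it ranged from 0.0106 to 0.157 over all settings tried. The gene of TNFR1 was not among the genes analysed here, so the Tnfr1-/- labels could not be checked in the same way.

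Tnf, the gene of TNF-α itself, was lower in the MDSCs that lacked TNFR2. It was at 30.4 and 25.9 FPKM in cells lacking TNFR1 and 15.7 and 15.6 FPKM in cells lacking TNFR2, a fall of 0.81 (SE 0.11, adjusted p = 0.0407). Among the TNF ligands and receptors, 27 of the 43 genes on the list were analysed, of which 2 rose, 3 fell, and 22 did not pass, with a median difference of -0.12 against 0.06 over all genes. That median was 0.01 without either Tnfr2-/- replicate. Tnfsf13, which encodes APRIL, a survival factor of plasma cells, was at 7.26 and 6.49 FPKM in both Tnfr1-/- and 15.6 and 21.1 FPKM in both Tnfr2-/- samples and rose by 1.28 (SE 0.18, adjusted p = 0.0416), but 57.3% of the 50-base windows of its transcripts also occur in another gene, so its reads may be shared. Tnfrsf21, which encodes the death receptor DR6, was at 16.9 and 17.8 FPKM in Tnfr1-/- and 28.4 and 29.1 FPKM in Tnfr2-/- MDSCs and rose by 0.70 (SE 0.06, adjusted p = 0.0299). Cd27, a costimulatory receptor of lymphocytes whose gene lies 0.12 Mb from that of TNFR1, was at 6.82 and 9.84 FPKM in cells lacking TNFR1 and 1.62 and 2.24 FPKM in cells lacking TNFR2 and fell by 1.66 (SE 0.20, adjusted p = 0.0378). None of these 4 genes overlapped between the knockouts.

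Another 3 genes of the TNF family were set apart without passing the test and were chosen after their values were seen. Tnfsf12, which encodes TWEAK, was at 2.21 and 3.53 FPKM in both Tnfr1-/- and 6.11 and 5.13 FPKM in both Tnfr2-/- samples, and 46.8% of its 50-base windows occur in another gene. Cd40lg, the CD40 ligand of activated T cells, was at 1.46 and 1.69 FPKM in Tnfr1-/- and 0.707 and 0.531 FPKM in Tnfr2-/- MDSCs, and Tnfrsf13c, the BAFF receptor of B cells, was at 24.7 and 20.3 FPKM in cells lacking TNFR1 and 11 and 16.1 FPKM in cells lacking TNFR2. Tnfsf12 was thus the higher of the 3 in Tnfr2-/- MDSCs, and the ligand and the receptor of lymphocytes were the lower ones. The most abundant member, Ltb, which encodes lymphotoxin β, was at 192 and 229 FPKM in both Tnfr1-/- and 183 and 203 FPKM in both Tnfr2-/- samples, and the samples overlapped. Grn, which encodes progranulin, was at 97.4 and 93.7 FPKM in Tnfr1-/- and 135 and 133 FPKM in Tnfr2-/- MDSCs, with a difference of 0.48 that stayed under the fold threshold.

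**Figure D2:**
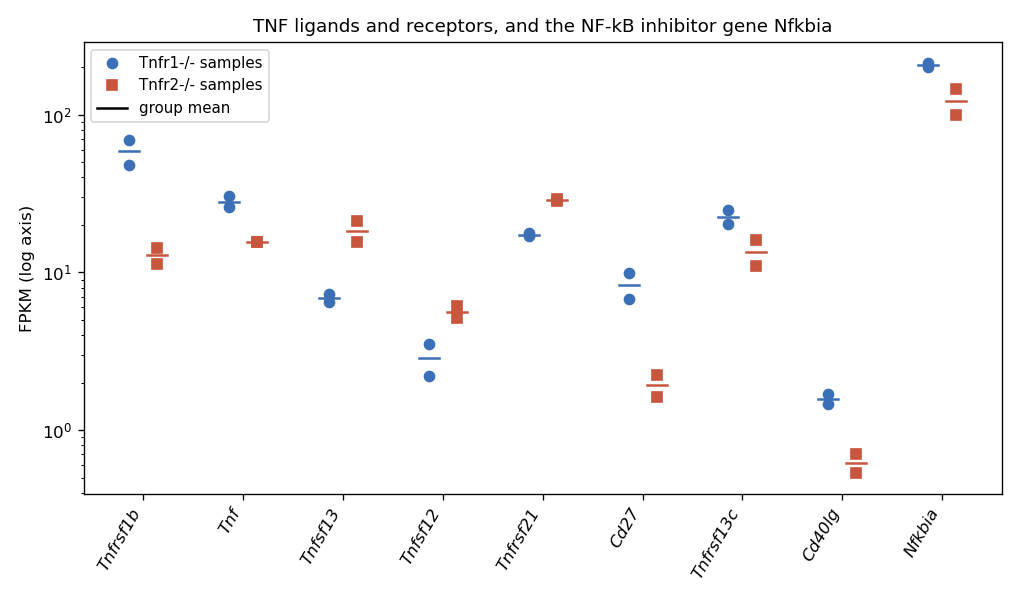
FPKM (log axis) of TNF ligands and receptors and of Nfkbia in each knockout sample, with Tnfr1-/- samples as circles, Tnfr2-/- samples as squares, and a line at each group mean. Tnfrsf1b, Tnf, and Cd27 fell and Tnfsf13 and Tnfrsf21 rose past the threshold, whereas Tnfsf12, Tnfrsf13c, Cd40lg, and Nfkbia were set apart without passing the test.

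Of the receptor adaptors and NF-κB genes, 28 of 48 were analysed and 0 passed the limma test, with a median difference of 0.07 that was -0.07 after median-ratio scaling. Nfkbia alone was set apart, with 0 genes of the list set apart lower without Tnfr2-/- replicate 1 and 3 without Tnfr2-/- replicate 2. It was at 202 and 213 FPKM in cells lacking TNFR1 and 100.2 and 146 FPKM in cells lacking TNFR2, a difference of -0.77 (SE 0.19, adjusted p = 0.0966), and was named both as the most abundant member of the list and for lying apart. Tnfaip2, a TNF-induced gene, was at 68.2 and 98.5 FPKM in both Tnfr1-/- and 84.6 and 88 FPKM in both Tnfr2-/- samples, and the samples overlapped. The starts of Tnf and Nfkbia are shown because both are textbook targets of NF-κB and both had lower means in Tnfr2-/- MDSCs. The windows are 300 bases around the transcript start, most of them upstream (RefSeq, GRCm38.p6), Tnf at chr17:35201958-35202257 and Nfkbia at chr12:55492598-55492897, both on the minus strand. Capitals mark matches to GGGNNNNNCC on either strand, letters that many NF-κB sites share.
Tnf: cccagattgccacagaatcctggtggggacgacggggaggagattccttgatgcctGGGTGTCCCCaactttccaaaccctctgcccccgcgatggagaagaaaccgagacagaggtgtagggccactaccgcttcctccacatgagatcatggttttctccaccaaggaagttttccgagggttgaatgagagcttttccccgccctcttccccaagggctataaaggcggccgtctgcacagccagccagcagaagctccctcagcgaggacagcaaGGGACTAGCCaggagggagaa
Nfkbia: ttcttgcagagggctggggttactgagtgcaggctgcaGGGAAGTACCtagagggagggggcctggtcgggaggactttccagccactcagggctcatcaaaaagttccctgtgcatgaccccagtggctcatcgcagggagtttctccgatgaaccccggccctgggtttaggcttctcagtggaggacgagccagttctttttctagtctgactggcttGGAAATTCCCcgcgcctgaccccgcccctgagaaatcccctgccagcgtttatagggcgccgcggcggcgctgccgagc
Each window held 2 matches. The same letters occurred in 50.4% of the windows of 27025 genes, in 67.4% of those of 6593 listed genes, in 64.8% of those of 125 genes set apart lower, and in 71.2% of those of 229 genes set apart higher. The pattern is therefore common and its share among the lower genes was close to that of all listed genes.

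The JNK and MAP kinase cascade and the cell polarity genes, both of which the study examined in aged MDSCs, showed no call between the knockouts. The study followed JNK by its phosphorylation and polarity by the place of Scribble in the cell, beside RNA-seq gene sets. Levels of mRNA show neither phosphorylation nor place. Of 29 JNK and MAP kinase genes, 0 passed the limma test, and the median difference was 0.01 (-0.08 after median-ratio scaling). Set apart were 2 higher and 2 lower, 6.9% each, against 3.49% and 1.89% of all genes. Mapk8 and Mapk9, which encode JNK1 and JNK2, were at 2.91 and 2.83 FPKM in Tnfr1-/- and 3.3 and 3.6 FPKM in Tnfr2-/- MDSCs and at 5.92 and 7.12 FPKM in cells lacking TNFR1 and 6.21 and 7.54 FPKM in cells lacking TNFR2, in that order. Mapk12, a p38 kinase gene, was at 5.03 and 4.82 FPKM in both Tnfr1-/- and 0.813 and 2.09 FPKM in both Tnfr2-/- samples, and Dusp6, an ERK phosphatase gene, was at 42.5 and 55.8 FPKM in Tnfr1-/- and 91.1 and 88.1 FPKM in Tnfr2-/- MDSCs. Of 20 polarity genes, 0 passed and 0 were set apart, and the median difference was 0.04 (-0.06 after median-ratio scaling). Scrib, which encodes the polarity protein Scribble, was at 8.78 and 6.88 FPKM in cells lacking TNFR1 and 7.0 and 7.5 FPKM in cells lacking TNFR2, with overlapping samples and a difference of -0.09 (SE 0.13, adjusted p = 0.717). From its RNA-seq, the study reported more scribble mRNA in aged Tnfr2-/- MDSCs than in those of either other genotype. The values here did not show this against Tnfr1-/-. Over both lists, 4 and 4 members had an unadjusted p-value under 0.05, respectively.

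Monocyte genes were the list with the largest share set apart higher among those with at least 5 listed genes. Of 21 monocyte markers, 13 were analysed, 11 were higher in Tnfr2-/- MDSCs, 3 rose past the threshold and 8 (61.5%) were set apart higher against 3.49% of all genes. Their median difference was 0.88, or 0.74 after median-ratio scaling, and their summed level was 1447 and 1593 FPKM in Tnfr1-/- and 2078 and 1989 FPKM in the Tnfr2-/- samples. Ccr2, the receptor that draws inflammatory monocytes out of the marrow, was at 80 and 101 FPKM in both Tnfr1-/- and 199 and 229 FPKM in both Tnfr2-/- samples and rose by 1.24 (SE 0.14, adjusted p = 0.0375), a 2.37-fold higher mean. F13a1, which encodes the coagulation factor XIII A chain and marks monocytes, was at 50.9 and 59.3 FPKM in Tnfr1-/- and 104 and 101 FPKM in Tnfr2-/- MDSCs and rose by 0.88 (SE 0.09, adjusted p = 0.0367). S100a4, a calcium-binding protein gene of motile myeloid cells, was at 69.8 and 67 FPKM in cells lacking TNFR1 and 137 and 179 FPKM in cells lacking TNFR2 and rose by 1.19, though 47.4% of its 50-base windows occur in another gene. None of the 3 overlapped between the knockouts. Without Tnfr2-/- replicate 1, 8 monocyte genes passed, and leaving out each knockout sample in turn set 7 to 9 apart higher.

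The 5 monocyte genes set apart without a call were chosen after their values were seen. Csf1r, the receptor of the growth factor of monocytes and macrophages, was at 71.3 and 92.6 FPKM in both Tnfr1-/- and 137 and 171 FPKM in both Tnfr2-/- samples. Cx3cr1, the fractalkine receptor of patrolling monocytes, was at 8.63 and 9.88 FPKM in Tnfr1-/- and 25.7 and 45.9 FPKM in Tnfr2-/- MDSCs, and its difference of 1.79 (SE 0.28, adjusted p = 0.0517) was the largest of the list. Fn1, which encodes fibronectin, was at 52.4 and 52.4 FPKM in cells lacking TNFR1 and 105 and 100.5 FPKM in cells lacking TNFR2. Ms4a6c was at 50.2 and 66 FPKM in both Tnfr1-/- and 102 and 142 FPKM in both Tnfr2-/- samples, and Ly6c1, one of the genes behind the Ly6C antigen, was at 95.8 and 99.6 FPKM in Tnfr1-/- and 121 and 178 FPKM in Tnfr2-/- MDSCs. Of their 50-base windows, 51.4% (Ms4a6c) and 32.8% (Ly6c1) occur in another gene. The most abundant marker, Hp (haptoglobin), which neutrophils also express, was at 640.3 and 624 FPKM in cells lacking TNFR1 and 715 and 424 FPKM in cells lacking TNFR2, and its samples overlapped.

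**Figure D3:**
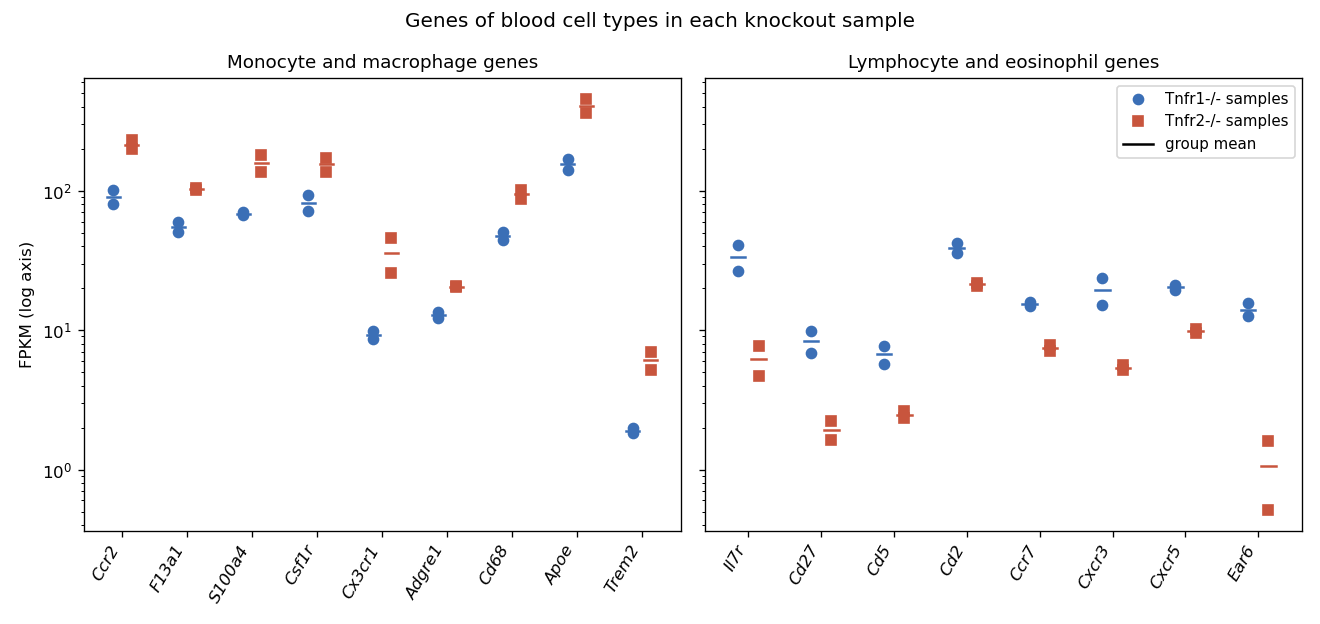
FPKM (log axis) of monocyte and macrophage genes (left) and lymphocyte and eosinophil genes (right) in each knockout sample, with Tnfr1-/- samples as circles, Tnfr2-/- samples as squares, and a line at each group mean. The Tnfr2-/- samples lie above both Tnfr1-/- samples for each of the 9 genes on the left and below them for each of the 8 on the right, and Csf1r and Cx3cr1 did not pass the test. Only genes called or set apart were drawn, so this separation follows from the choice. Members not drawn include C1qc (-0.24), Hp (-0.20), and Ear2 (0.51), whose differences went the other way.

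Macrophage genes were also higher. Of 19 markers, 18 were analysed, 14 were higher, 4 rose past the threshold and 6 (33.3%) were set apart higher, with a median difference of 0.37 (0.24 after median-ratio scaling) and sums of 471 and 539 FPKM against 837 and 984 FPKM. Adgre1, which encodes F4/80, the antigen used to follow macrophage maturation of MDSCs, was at 12.2 and 13.4 FPKM in both Tnfr1-/- and 20.6 and 20.4 FPKM in both Tnfr2-/- samples and rose by 0.64 (SE 0.09, adjusted p = 0.0421). Cd68, which encodes a lysosomal membrane protein of macrophages, was at 44.4 and 50.2 FPKM in Tnfr1-/- and 86.6 and 101 FPKM in Tnfr2-/- MDSCs and rose by 0.97 (SE 0.12, adjusted p = 0.0378). Apoe, which encodes the lipid carrier apolipoprotein E, was at 139.6 and 168 FPKM in cells lacking TNFR1 and 359 and 454 FPKM in cells lacking TNFR2 and rose by 1.39 (SE 0.21, adjusted p = 0.0495), close to the threshold. Trem2, a lipid-sensing receptor of macrophages, was at 1.98 and 1.82 FPKM in both Tnfr1-/- and 5.15 and 6.98 FPKM in both Tnfr2-/- samples and rose by 1.27 (SE 0.14, adjusted p = 0.0375). The samples of these 4 genes did not overlap. Of the complement genes of resident macrophages, C1qb was at 31.6 and 36.1 FPKM in Tnfr1-/- and 37 and 43.9 FPKM in Tnfr2-/- MDSCs and C1qc, with a difference of -0.24, was the lowest of the list. Of 10 genes of red pulp and marginal zone macrophages, 0 passed the limma test and 1, Siglec1, was set apart higher, at 0.998 and 2.09 FPKM in cells lacking TNFR1 and 2.51 and 6.7 FPKM in cells lacking TNFR2.

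The start of Cd68 is shown because PU.1, encoded by Spi1, is the main transcription factor of myeloid cells and binds near many macrophage genes. The window (RefSeq, GRCm38.p6, chr11:69666121-69666420, minus strand) has in capitals the matches to GAGGAA, the core letters of PU.1 sites, on either strand.
Cd68: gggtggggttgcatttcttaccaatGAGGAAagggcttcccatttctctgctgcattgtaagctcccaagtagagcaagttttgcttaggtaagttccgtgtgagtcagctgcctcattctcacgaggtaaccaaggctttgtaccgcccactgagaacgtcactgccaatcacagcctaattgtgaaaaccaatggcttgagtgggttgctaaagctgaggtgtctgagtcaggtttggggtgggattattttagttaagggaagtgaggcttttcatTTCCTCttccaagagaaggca
There were 2 matches. These letters occurred in 28.3% of the windows of all 27025 genes, 26.8% of those of 6593 listed genes, 29.7% of those set apart higher, and 31.2% of those set apart lower. The window of Ccr2 held no such letters. Spi1 was at 130.4 and 144 FPKM in both Tnfr1-/- and 163 and 146 FPKM in both Tnfr2-/- samples, and its samples did not differ past the threshold. Among 31 myeloid transcription factor genes, 24 were higher and 2 rose past the threshold, and 4 (12.9%) were set apart higher, or 8 and 9 without Tnfr2-/- replicate 1 and Tnfr1-/- replicate 2. Cebpa, which encodes C/EBPα, a factor of early myeloid cells, was at 15.3 and 17.5 FPKM in Tnfr1-/- and 34 and 33.1 FPKM in Tnfr2-/- MDSCs and rose by 0.99 (SE 0.09, adjusted p = 0.0277). Ahr, the aryl hydrocarbon receptor gene, was at 2.74 and 3.08 FPKM in cells lacking TNFR1 and 5.76 and 6.47 FPKM in cells lacking TNFR2 and rose by 0.86 (SE 0.11, adjusted p = 0.0397). Batf3, a factor of cross-presenting dendritic cells, was at 4.15 and 2.63 FPKM in both Tnfr1-/- and 7.31 and 11.2 FPKM in both Tnfr2-/- samples, and Ets1, a factor of lymphocytes, was at 71.4 and 72.5 FPKM in Tnfr1-/- and 53.6 and 36.4 FPKM in Tnfr2-/- MDSCs, Batf3 apart higher and Ets1 apart lower without passing, and both chosen after their values were seen.

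Dendritic cell genes moved both ways. Of 19 markers, 13 were analysed, 10 were higher, 1 rose, 1 fell, and 6 (46.2%) were set apart higher and 1 lower. Fscn1, which encodes the actin bundler fascin, was at 2.11 and 1.8 FPKM in cells lacking TNFR1 and 3.93 and 4.06 FPKM in cells lacking TNFR2 and rose by 0.76 (SE 0.10, adjusted p = 0.0384). Ccr7, the homing receptor of mature dendritic cells and of naive lymphocytes, was at 15 and 16 FPKM in both Tnfr1-/- and 7.04 and 7.78 FPKM in both Tnfr2-/- samples and fell by 0.97 (SE 0.09, adjusted p = 0.0299). Chosen after their values were seen, Cd209a was at 3.76 and 2.19 FPKM in Tnfr1-/- and 8.2 and 5.9 FPKM in Tnfr2-/- MDSCs, Clec10a at 3.15 and 1.89 FPKM in cells lacking TNFR1 and 5.63 and 7.54 FPKM in cells lacking TNFR2, and Clec9a at 1.09 and 0.321 FPKM in both Tnfr1-/- and 2.52 and 2.29 FPKM in both Tnfr2-/- samples, each apart in the higher direction. Itgax, which encodes CD11c, was at 12.5 and 12.6 FPKM in Tnfr1-/- and 13.3 and 17.1 FPKM in Tnfr2-/- MDSCs, a difference of 0.25 (SE 0.12, adjusted p = 0.293). Cd80, a costimulatory ligand gene, was at 2.82 and 4.5 FPKM in cells lacking TNFR1 and 4.43 and 4.52 FPKM in cells lacking TNFR2, and its samples overlapped. In a bulk sample, fewer cells of a type and less RNA per cell cannot be told apart.

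**Figure D4:**
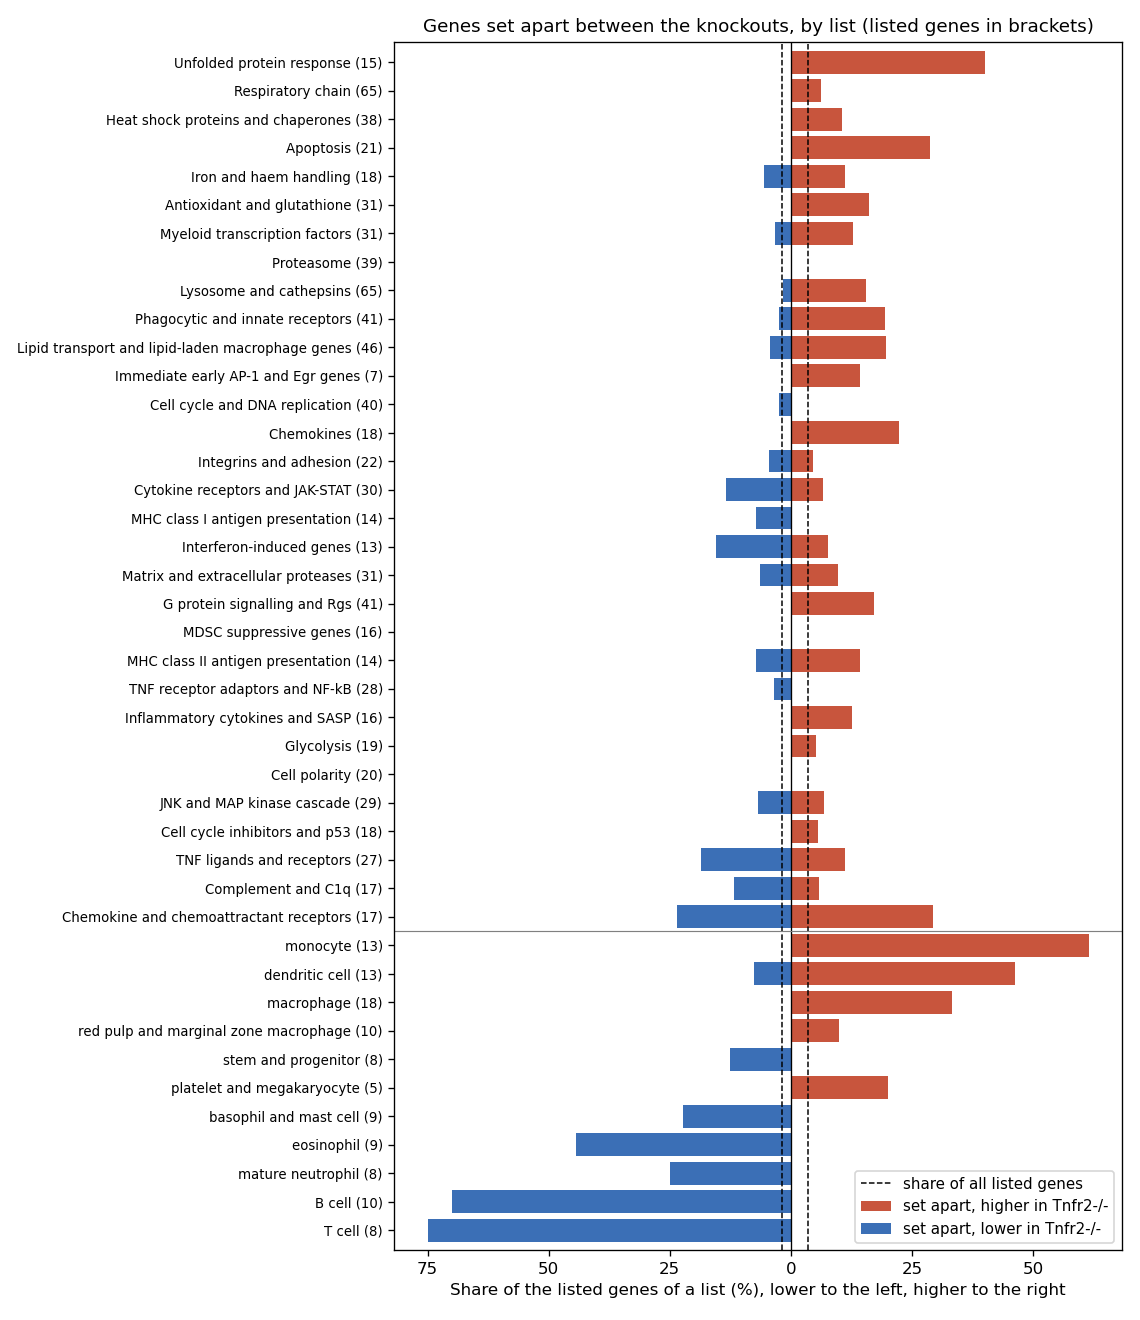
Share of the listed genes of each list, in percent, that was set apart higher (to the right) or lower (to the left) in Tnfr2-/- MDSCs, with the share of all 8191 genes as dashed lines (3.49% and 1.89%). Cell type lists stand below the grey line and function lists above it, lists with under 5 listed genes are left out, and the monocyte, T cell, and B cell lists have the longest bars.

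Chemokine genes were higher where they differed, and their receptors differed both ways. Of 18 chemokine genes, 1 rose past the threshold and 4 (22.2%) were set apart higher, or 7 without Tnfr2-/- replicate 1 and 2 without Tnfr2-/- replicate 2. Ccl9, a CC chemokine gene of myeloid cells, was at 27.4 and 29.3 FPKM in both Tnfr1-/- and 71.8 and 88.2 FPKM in both Tnfr2-/- samples and rose by 1.46 (SE 0.12, adjusted p = 0.0255), a 2.82-fold higher mean. Ccl6, its neighbor in the same gene cluster and the most abundant chemokine, was at 204 and 282 FPKM in Tnfr1-/- and 426 and 417 FPKM in Tnfr2-/- MDSCs, apart without a call. Ccl2, the ligand of Ccr2, was at 0.749 and 1.48 FPKM in cells lacking TNFR1 and 1.51 and 14.6 FPKM in cells lacking TNFR2, so that the difference of 1.59 (adjusted p = 0.337) came from Tnfr2-/- replicate 2. Of 17 chemoattractant receptor genes, 3 rose and 3 fell. Besides Ccr2, Ccr10 was at 1.17 and 0.686 FPKM in both Tnfr1-/- and 4.2 and 3.1 FPKM in both Tnfr2-/- samples and rose by 1.27, and Cysltr1, a leukotriene receptor gene, was at 1.85 and 2.07 FPKM in Tnfr1-/- and 4.5 and 5.46 FPKM in Tnfr2-/- MDSCs and rose by 1.01. Besides Ccr7, Cxcr3, a receptor of activated T cells and plasmacytoid dendritic cells, was at 15.2 and 23.5 FPKM in cells lacking TNFR1 and 5.64 and 5.14 FPKM in cells lacking TNFR2 and fell by 1.64. Cxcr5, the B cell follicle receptor, was at 19.5 and 21.1 FPKM in both Tnfr1-/- and 9.54 and 10.2 FPKM in both Tnfr2-/- samples and fell by 0.97. Both Tnfr2-/- samples lay below both Tnfr1-/- samples for Cxcr3 and Cxcr5 and above them for Ccr10 and Cysltr1. The adjusted p-values of Ccr10, Cysltr1, Cxcr3, and Cxcr5 were 0.0397, 0.0375, 0.0407, and 0.0299 in limma, in that order.

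Lipid handling genes were among the calls in both directions. Of 46 lipid transport and lipid-laden macrophage genes, 37 were higher, 5 rose, 1 fell, and the median difference was 0.20 (0.14 after median-ratio scaling), with 9 (19.6%) set apart higher and 2 lower. Without Tnfr2-/- replicate 1, 16 were set apart higher. Besides Apoe and Trem2, Lpl, which encodes lipoprotein lipase, was at 2.0 and 1.36 FPKM in Tnfr1-/- and 6.81 and 5.59 FPKM in Tnfr2-/- MDSCs and rose by 1.43 (adjusted p = 0.0349). Apoc1, next to Apoe on chromosome 7, was at 1.06 and 0.909 FPKM in cells lacking TNFR1 and 3.82 and 4.81 FPKM in cells lacking TNFR2 and rose by 1.41 (adjusted p = 0.0432). Lrp1, a receptor that takes up apolipoprotein E, was at 14 and 15.9 FPKM in both Tnfr1-/- and 26.8 and 28.6 FPKM in both Tnfr2-/- samples and rose by 0.85 (adjusted p = 0.0367). Abca1, which exports cholesterol, was at 6.24 and 6.0 FPKM in Tnfr1-/- and 3.6 and 3.72 FPKM in Tnfr2-/- MDSCs and fell by 0.61 (adjusted p = 0.0382). Scd1, a fatty acid desaturase gene chosen after its value was seen, was at 72.5 and 62.6 FPKM in cells lacking TNFR1 and 22.8 and 40.7 FPKM in cells lacking TNFR2, apart in the lower direction. Cyp27a1, a sterol hydroxylase gene, was at 10.7 and 10.9 FPKM in both Tnfr1-/- and 24.2 and 31 FPKM in both Tnfr2-/- samples and rose by 1.26 (adjusted p = 0.0321), and Scarb1, the HDL receptor gene, was at 12.6 and 13.3 FPKM in Tnfr1-/- and 20.4 and 24.6 FPKM in Tnfr2-/- MDSCs and rose by 0.75 (adjusted p = 0.0407).

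Of 65 lysosome and cathepsin genes, 50 were higher, 1 rose (Cd68), 1 fell, and 10 (15.4%) were set apart higher and 1 lower, or 5 higher without Tnfr2-/- replicate 2 and 6 when the 4 knockout samples were scaled by their median ratio. Psap, which encodes prosaposin, was at 566 and 641 FPKM in cells lacking TNFR1 and 997 and 1307 FPKM in cells lacking TNFR2, Lamp1 at 125 and 138 FPKM in both Tnfr1-/- and 204 and 249 FPKM in both Tnfr2-/- samples, and Ctss, an antigen-processing cathepsin gene, at 156 and 199 FPKM in Tnfr1-/- and 248 and 350.2 FPKM in Tnfr2-/- MDSCs, none of which passed. Acp5, the tartrate-resistant acid phosphatase gene of osteoclasts and some macrophages, was at 18.5 and 21.3 FPKM in cells lacking TNFR1 and 8.83 and 10.7 FPKM in cells lacking TNFR2 and fell by 0.96 (SE 0.12, adjusted p = 0.0384), against the direction of the list. Of 41 phagocytic and innate receptor genes, 30 were higher, 2 rose (Scarb1 and Trem2), and 8 (19.5%) were set apart higher. Msr1, a scavenger receptor gene chosen after its value was seen, was at 3.26 and 4.55 FPKM in both Tnfr1-/- and 8.14 and 10 FPKM in both Tnfr2-/- samples (adjusted p = 0.0507). Tyrobp, the adaptor gene of TREM2 and the most abundant of the list, was at 881 and 967 FPKM in Tnfr1-/- and 1343 and 1178 FPKM in Tnfr2-/- MDSCs, a difference of 0.45 (adjusted p = 0.252).

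T cell genes were mostly lower in Tnfr2-/- MDSCs. Of 22 T cell markers, 8 were analysed, 7 were lower, 2 fell past the threshold and 6 (75.0%) were set apart lower against 1.89% of all genes, and their median difference was -0.91 (-1.07 after median-ratio scaling). They summed to 104 and 133 FPKM in Tnfr1-/- and to 58.8 and 56.9 FPKM in Tnfr2-/- MDSCs. Cd5, an inhibitory receptor gene of T cells, was at 5.71 and 7.73 FPKM in cells lacking TNFR1 and 2.33 and 2.62 FPKM in cells lacking TNFR2 and fell by 1.14 (SE 0.17, adjusted p = 0.0470). Cd2, an adhesion receptor gene of T and NK cells, was at 35.7 and 42.2 FPKM in both Tnfr1-/- and 20.6 and 21.9 FPKM in both Tnfr2-/- samples and fell by 0.84 (SE 0.10, adjusted p = 0.0378). Among those set apart and chosen after their values were seen, Cd3g, a chain of the T cell receptor complex, was at 16.3 and 23.5 FPKM in Tnfr1-/- and 5.96 and 8.8 FPKM in Tnfr2-/- MDSCs, and Tcf7, a transcription factor gene of naive T cells, at 19.1 and 30.8 FPKM in cells lacking TNFR1 and 9.02 and 9.26 FPKM in cells lacking TNFR2. Il7r, the IL-7 receptor gene of naive and memory T cells and of lymphoid progenitors, was at 26.5 and 40.4 FPKM in both Tnfr1-/- and 7.74 and 4.69 FPKM in both Tnfr2-/- samples and fell by 2.26 (SE 0.28, adjusted p = 0.0384), a 5.38-fold lower mean. Neither group overlapped the other for any of these genes. None of the 8 T cell markers was at 0 in a knockout sample, and Cd3e and Trac were not analysed here. The part of T cells in these samples was not tested.

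Of 16 B cell markers, 10 were analysed, 9 were lower, 0 passed the limma test and 7 (70.0%) were set apart lower, with 7 at an unadjusted p-value under 0.05 and a median difference of -0.66. Their sums were 607 and 520 FPKM against 302 and 453 FPKM. Cd79a, the most abundant of the list, was at 192 and 149 FPKM in Tnfr1-/- and 83.6 and 142 FPKM in Tnfr2-/- MDSCs, so that Tnfr2-/- replicate 1 was the lowest sample. Without that replicate, 1 of the 10 markers was set apart lower, and without Tnfr1-/- replicate 1, 4 were. Plasma cell markers went in the opposite direction. Jchain, which encodes the joining chain of antibodies made by plasma cells, was at 1447 and 879 FPKM in cells lacking TNFR1 and 2186 and 2035 FPKM in cells lacking TNFR2. Jchain and Fkbp11, the 2 plasma cell markers analysed, were both set apart higher, by 0.90 and 0.89, and 0 passed the limma test. Their median was 0.80 after median-ratio scaling.

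Markers of eosinophils, basophils, and mature neutrophils had lower medians in Tnfr2-/- MDSCs. Ear6, an eosinophil-associated ribonuclease gene, had the largest fall of all, at 15.5 and 12.5 FPKM in both Tnfr1-/- and 1.61 and 0.509 FPKM in both Tnfr2-/- samples, a difference of -2.91 (SE 0.28, adjusted p = 0.0306) and a 13.2-fold lower mean. Of 11 eosinophil markers, 9 were analysed, 8 were lower, 1 fell past the threshold (Ear6), and 4 (44.4%) were set apart lower, with sums of 103 and 85.2 FPKM against 70.5 and 83.8 FPKM. Prg2, the eosinophil major basic protein gene chosen after its value was seen, was at 15.3 and 6.71 FPKM in Tnfr1-/- and 1.92 and 0.518 FPKM in Tnfr2-/- MDSCs. Ear2, which monocytes also express, made up the largest part of these sums and was the 1 marker of the 9 with a higher mean in Tnfr2-/- MDSCs, at 43.9 and 41.5 FPKM in cells lacking TNFR1 and 50.4 and 74.1 FPKM in cells lacking TNFR2. All 9 basophil and mast cell markers analysed were lower, 0 passed the limma test, and Cpa3 and Prss34 were set apart lower, at 0.877 and 1.36 FPKM in both Tnfr1-/- and 0.217 and 0.162 FPKM in both Tnfr2-/- samples and at 1.32 and 1.01 FPKM in Tnfr1-/- and 0.284 and 0.212 FPKM in Tnfr2-/- MDSCs, in that order. Of 8 mature neutrophil markers, 7 were lower, 0 passed, 2 were set apart lower, and the median difference was -0.51. Without Tnfr2-/- replicate 2 that median was -0.13 with 0 set apart, and without Tnfr2-/- replicate 1 it was -0.84 with 5 set apart. Retnlg, a resistin-like gene of neutrophils, was at 2364 and 1961 FPKM in cells lacking TNFR1 and 1649 and 1049 FPKM in cells lacking TNFR2, and Slfn4 was at 559.8 and 688 FPKM in both Tnfr1-/- and 458 and 336 FPKM in both Tnfr2-/- samples. The neutrophil markers summed to 4181 and 3968 FPKM against 3376 and 2171 FPKM, and S100a8, Ly6g, and the 8 markers of primary granules were not analysed here. Of 13 markers of secondary granules, 3 were analysed and 0 passed, and Lyz2, the lysozyme gene that monocytes and macrophages also express, was set apart higher, at 4203 and 2946 FPKM in Tnfr1-/- and 6823 and 5596 FPKM in Tnfr2-/- MDSCs. The 3 markers summed to 4617 and 3238 FPKM against 7259 and 5762 FPKM, most of it Lyz2. Their median difference was 0.16, but -0.03 with quantile normalization and -0.12 without Tnfr1-/- replicate 2. Chil3 had the lowest difference of the 3, -0.52. Slc4a1, the band 3 gene of red cells, was at 2.3 and 1.95 FPKM in cells lacking TNFR1 and 0.815 and 0.409 FPKM in cells lacking TNFR2 and fell by 0.96 (adjusted p = 0.0407), the call among the 3 erythroid markers analysed. The part of these cells in the other differences was not tested.

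Genes tied to MDSC function showed no call. Of 16 suppressive genes, 0 passed the limma test, 0 were set apart, and the median difference was 0.10 (-0.05 after median-ratio scaling). Wfdc17, a whey acidic protein gene of suppressive myeloid cells, was at 431 and 545 FPKM in both Tnfr1-/- and 497 and 359 FPKM in both Tnfr2-/- samples, and Cebpb, which encodes C/EBPβ, was at 189 and 275 FPKM in Tnfr1-/- and 302 and 379.6 FPKM in Tnfr2-/- MDSCs. Arg1, Nos2, and Cd274 were not analysed here. Among 16 inflammatory cytokine genes 0 passed, and Il6 and Il1b were not analysed here. Il18 was at 3.07 and 2.99 FPKM in cells lacking TNFR1 and 4.24 and 6.89 FPKM in cells lacking TNFR2 and Il1rn, the IL-1 receptor antagonist gene, at 17.3 and 29.2 FPKM in both Tnfr1-/- and 37.9 and 31.5 FPKM in both Tnfr2-/- samples, both set apart higher and chosen after their values were seen. Of 18 cell cycle inhibitor and p53 genes, 0 passed and 1 (5.56%), Cdkn1a, was set apart higher, or 0 higher after median-ratio scaling. Cdkn1a, which encodes p21, was at 5.8 and 8.55 FPKM in Tnfr1-/- and 9.0 and 23.7 FPKM in Tnfr2-/- MDSCs, a difference of 0.96 (SE 0.45, adjusted p = 0.274) that came from Tnfr2-/- replicate 2. The study reported less p21 protein in Tnfr2-/- than in Tnfr1-/- MDSCs, the opposite direction, and protein was not measured here. Cdkn1b, which encodes p27, was at 85.8 and 109 FPKM in cells lacking TNFR1 and 98.9 and 76.7 FPKM in cells lacking TNFR2, and its samples overlapped. None of 14 MHC class II and 14 MHC class I genes passed, whereas without Tnfr2-/- replicate 1, 3 of each passed. Cd74, the invariant chain gene, was at 838 and 858 FPKM in both Tnfr1-/- and 660.2 and 1098 FPKM in both Tnfr2-/- samples, with overlapping samples, whereas H2-Ob, a class II gene of B cells chosen after its value was seen, was at 22.8 and 16.2 FPKM in Tnfr1-/- and 9.38 and 8.79 FPKM in Tnfr2-/- MDSCs. Of 30 cytokine receptor and JAK-STAT genes, Il7r fell and Il10ra, the IL-10 receptor gene, rose by 0.79 (adjusted p = 0.0487), at 36 and 35.9 FPKM in cells lacking TNFR1 and 56.7 and 69.7 FPKM in cells lacking TNFR2.

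Housekeeping genes of mitochondria, protein folding, and protein breakdown were higher by small amounts on the deposited scale, with no call. All 65 respiratory chain genes were higher, with a median difference of 0.39 (0.24 after median-ratio scaling, against -0.02 for all genes), 0 passed the limma test, and 4 (6.15%) were set apart. Without Tnfr2-/- replicate 1, 31 were set apart, without Tnfr1-/- replicate 1, 19 were, and without Tnfr2-/- replicate 2, 0 were. Atp5b, an ATP synthase subunit gene, was at 148 and 138 FPKM in both Tnfr1-/- and 155 and 211 FPKM in both Tnfr2-/- samples. All 39 proteasome genes were higher, with a median of 0.26 (0.12 after median-ratio scaling) and 0 set apart. Without Tnfr2-/- replicate 1 the median was 0.49 with 13 set apart, and without Tnfr2-/- replicate 2 it was 0.10 with 0 set apart. Of 15 unfolded protein response genes, 13 were higher, the median was 0.50, and 6 (40.0%) were set apart, or 10 without Tnfr2-/- replicate 1, 3 without Tnfr1-/- replicate 2, and 1 without Tnfr2-/- replicate 2. Hsp90b1, the endoplasmic reticulum chaperone gene, was at 141 and 115 FPKM in Tnfr1-/- and 193 and 291 FPKM in Tnfr2-/- MDSCs. Of 38 heat shock and chaperone genes, 37 were higher, with a median of 0.34 and 4 set apart, or 12 without Tnfr2-/- replicate 1. When the 4 knockout samples were scaled by their median ratio, 2 respiratory chain, 2 unfolded protein response, and 1 chaperone gene were set apart. The counts of the respiratory chain, unfolded protein response, and chaperone lists thus rested on Tnfr2-/- replicate 2 and on the deposited scale. Of 40 cell cycle genes, 35 were higher, 0 passed, and 1, Ccnd2, was set apart lower, at 15.8 and 23.7 FPKM in cells lacking TNFR1 and 12.3 and 11.2 FPKM in cells lacking TNFR2. Their median difference of 0.18 turned to -0.08 without Tnfr1-/- replicate 2, and without Tnfr1-/- replicate 1 it was 0.48 with 9 set apart higher.

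Several lists held no gene that passed the limma test. Of 13 interferon-induced genes, 8 were higher, 1 was set apart higher and 2 lower, with a median difference of 0.13 that was near 0 after median-ratio scaling. Of 7 immediate early AP-1 and Egr genes, which respond within minutes to a stimulus, 5 were higher and 1 was set apart. Of 8 stem and progenitor cell markers 5 were higher and 1 was set apart lower. Of 5 platelet markers 3 were higher and 1 was set apart higher. The Y-linked genes Ddx3y, Eif2s3y, Kdm5d, and Uty were listed at 0 in all 4 knockout samples and above 0 in both WT samples. The study states that its mice were matched for sex, and the sex of these pools was not tested.

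Single members passed in other lists. Over all genes 1.45% passed, 0.842% higher and 0.61% lower, so 1 call in a list of this size says little about the list. Of 21 apoptosis genes, 20 were higher and Casp9, the initiator caspase of the mitochondrial pathway, was at 5.95 and 5.4 FPKM in both Tnfr1-/- and 12.1 and 10.5 FPKM in both Tnfr2-/- samples and rose by 0.88 (adjusted p = 0.0367). Of 17 complement genes, 1 rose and 1 fell past the threshold. The one that fell, Cd55, a membrane inhibitor of complement, was at 22.3 and 16.5 FPKM in Tnfr1-/- and 8.33 and 7.3 FPKM in Tnfr2-/- MDSCs and fell by 1.20 (adjusted p = 0.0407). Itgb5, the integrin β5 gene, was at 5.9 and 6.5 FPKM in cells lacking TNFR1 and 11.9 and 14.3 FPKM in cells lacking TNFR2 and rose by 0.96, the call among 22 integrin and adhesion genes. Of 31 matrix and protease genes, Adamdec1, a protease gene of macrophages, was at 10.3 and 8.01 FPKM in both Tnfr1-/- and 3.51 and 4.19 FPKM in both Tnfr2-/- samples and fell by 1.06. Stfa1, a neutrophil stefin gene, had 1.25 and 0.982 FPKM in Tnfr1-/- MDSCs and was listed at 0 in both Tnfr2-/- samples, so no fold is given, and 22.5% of its windows occur in another gene. Gstm1 rose by 0.87 among 31 antioxidant genes, Ldhb by 1.01 among 19 glycolytic genes, Trf, the transferrin gene, by 1.08 among 18 iron genes, and Adora2b, an adenosine receptor gene, by 1.02 among 41 G protein signalling genes. Of Trf, 59.4% of the windows are shared with another gene, and of Ldhb 21%.

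Several of the largest differences lay in no list. Sfi1, a centrosome protein gene on chromosome 11, was at 36.4 and 34.7 FPKM in Tnfr1-/- and 4.74 and 4.05 FPKM in Tnfr2-/- MDSCs and fell by 2.76 (SE 0.10, adjusted p = 0.00538), a 8.08-fold lower mean with a narrow spread. Asprv1, a retroviral-like protease gene, was at 151 and 149.7 FPKM in cells lacking TNFR1 and 67.1 and 57.7 FPKM in cells lacking TNFR2 and fell by 1.26. Sidt1, a transmembrane protein gene, was at 6.64 and 10.6 FPKM in both Tnfr1-/- and 2.12 and 1.86 FPKM in both Tnfr2-/- samples and fell by 1.66. Pik3ip1, an inhibitor gene of PI3 kinase, was at 6.03 and 7.09 FPKM in Tnfr1-/- and 2.3 and 1.67 FPKM in Tnfr2-/- MDSCs and fell by 1.35. Plcg1, a phospholipase gene of the T cell receptor pathway, was at 5.95 and 7.69 FPKM in cells lacking TNFR1 and 2.54 and 2.38 FPKM in cells lacking TNFR2 and fell by 1.17 (adjusted p = 0.0378). Gdf11 fell by 1.31, Ggt1 by 1.27, and Col6a4 by 1.21, with 2.68 to 4.22 FPKM in the Tnfr1-/- samples and 0.491 to 1.15 FPKM in the Tnfr2-/- samples. Among the rises, Pid1 was at 5.39 and 7.12 FPKM in both Tnfr1-/- and 18.3 and 19.7 FPKM in both Tnfr2-/- samples and rose by 1.47, Tmem176b was at 20.4 and 18.4 FPKM in Tnfr1-/- and 46.2 and 52.3 FPKM in Tnfr2-/- MDSCs and rose by 1.30, and Ldlrad3 was at 5.78 and 5.61 FPKM in cells lacking TNFR1 and 13.2 and 17.8 FPKM in cells lacking TNFR2 and rose by 1.29. The adjusted p-values of Asprv1, Sidt1, Pik3ip1, Gdf11, Ggt1, Col6a4, Pid1, Tmem176b, and Ldlrad3 were between 0.00937 and 0.0407 in limma. Of the 119 genes that passed, 6 had over 50% and 18 had over 10% of their 50-base windows in common with another gene.

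The neighborhoods of the deleted genes held a larger share of differing genes than the table as a whole. Within 5 Mb of Tnfrsf1b, 6 of 52 other listed genes passed (11.5%) and 7 were set apart (13.5%), against 1.45% and 5.38% of all genes. Within 10 Mb the shares were 5.36% and 9.82% of 112 genes, and within 20 Mb 2.67% and 6.22% of 225. Around the gene of TNFR1 on chromosome 6, 3 of 67 genes within 5 Mb passed (4.48%) and 9 were set apart (13.4%), and within 10 Mb 5 of 93 (5.38%) and 13 (14%). Within 20 Mb, 6 of 141 passed (4.26%) and 18 were set apart (12.8%). Unlike around Tnfrsf1b, these shares hardly fell with distance. These are counts without a test, since neighboring genes are not independent. Each knockout carries only its own targeted locus, and an effect of the missing receptor and one of the chromosome stretch around the targeted gene cannot be told apart here.

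Padi2, which encodes an enzyme that turns arginine into citrulline, had the largest rise of all genes that passed and lies 4.30 Mb from Tnfrsf1b (chromosome 4, 140906344 to 140952586). It was at 1.39 and 1.85 FPKM in both Tnfr1-/- and 13.9 and 13.9 FPKM in both Tnfr2-/- samples and rose by 2.51 (SE 0.14, adjusted p = 0.0105), a 8.58-fold higher mean, while WT MDSCs had a mean of 1.95 FPKM. Dhrs3, a retinaldehyde reductase gene 0.32 Mb from Tnfrsf1b, was at 3.4 and 5.06 FPKM in Tnfr1-/- and 11.4 and 12.6 FPKM in Tnfr2-/- MDSCs and rose by 1.33. Its WT mean was 17.4 FPKM, above both knockouts on the deposited scale. Casp9 and Efhd2, 3.43 and 3.36 Mb away, also rose, Efhd2 by 0.91 from 53.4 and 62.6 to 116 and 103 FPKM. On the other side, Miip was at 14.2 and 14 FPKM in cells lacking TNFR1 and 8.35 and 6.65 FPKM in cells lacking TNFR2 and fell by 0.83, and Cort had 1.32 and 1.16 FPKM in Tnfr1-/- MDSCs and was listed at 0 in both Tnfr2-/- samples. The WT mean of Cort was 0.139 FPKM, nearer to the Tnfr2-/- level.

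Pianp, which encodes a ligand of the receptor PILRα and lies 0.36 Mb from the gene of TNFR1, was at 0.154 and 0.219 FPKM in both Tnfr1-/- and 3.73 and 4.0 FPKM in both Tnfr2-/- samples. It rose by 2.04 (SE 0.07, adjusted p = 0.00538), and the WT mean of 3.12 FPKM was near the Tnfr2-/- level. Cd27, described above, lies 0.12 Mb from the gene of TNFR1, and its WT mean was 1.51 FPKM, again near the Tnfr2-/- level. Klrc2, an NK cell receptor gene 4.30 Mb away, was at 1.23 and 1.17 FPKM against 0.0511 and 0 FPKM. Magohb, an exon junction gene 5.93 Mb away, was at 2.6 and 2.45 FPKM in Tnfr1-/- and 8.25 and 11.4 FPKM in Tnfr2-/- MDSCs and rose by 1.60, and Rassf4, 8.70 Mb away, was at 20.3 and 23.6 FPKM in cells lacking TNFR1 and 36.7 and 42.2 FPKM in cells lacking TNFR2 and rose by 0.82. The WT mean of Magohb was 5.64 FPKM, between the knockouts on the deposited scale. Klra3, an NK cell receptor gene of a family of near copies chosen after its value was seen, was listed at 0 in both Tnfr1-/- samples and had 6.51 and 1.62 FPKM in those of Tnfr2-/-. The levels given for WT come from libraries whose listed genes sum to 344714 and 346870 FPKM. Their median-ratio size factors were 1.67 and 1.66, against 0.740 to 0.881 for the knockout samples. Where a WT mean is placed above, between, or near the knockouts, this holds on the deposited scale only and can change with scaling. The WT levels stand beside the comparison and are no test of it.

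**Figure D5:**
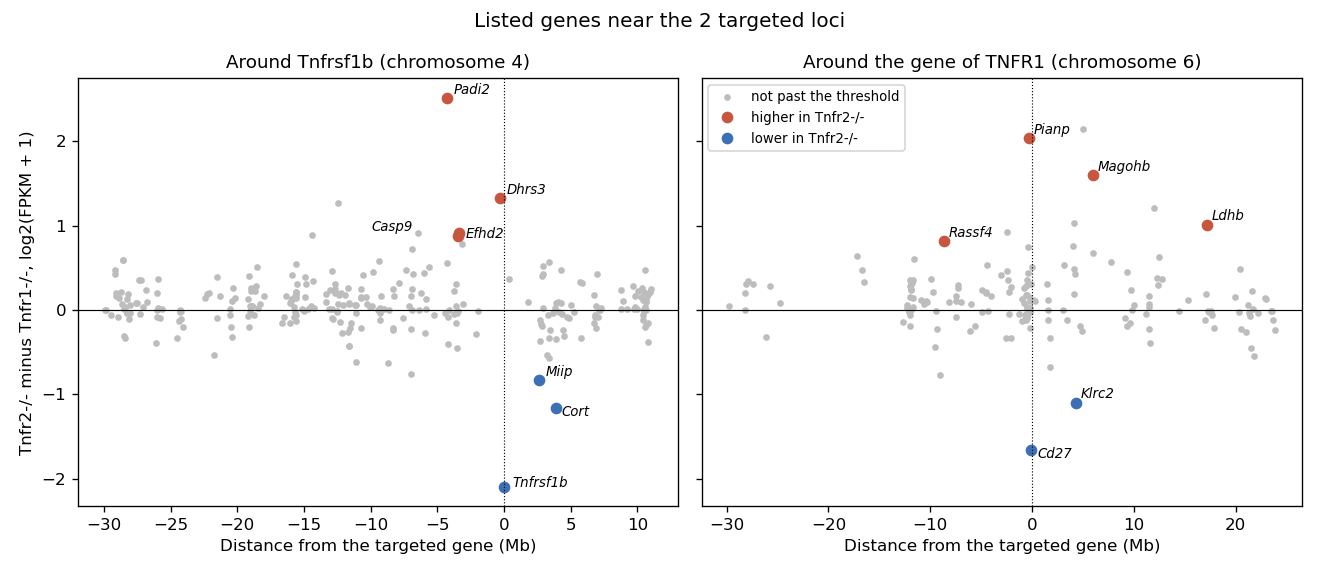
Difference between Tnfr2-/- and Tnfr1-/- MDSCs on the log2(FPKM + 1) scale for listed genes within 30 Mb of Tnfrsf1b (left) and of the gene of TNFR1 (right), against their distance in Mb. The colored points are the genes that passed the test, which lie mostly within 10 Mb of each deleted gene in these windows.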

How the data were processed

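mRNA-seq of splenic MDSCs was analysed from 6 samples, 2 each of aged WT, Tnfr1-/-, and Tnfr2-/- mice, and samples were grouped by the genotype in their labels. The authors sequenced 50-base single-end reads, checked them with FastQC, and deposited expression as FPKM per gene and sample. The labels name mm10 as the genome build, and the aligner and the tool that made the FPKM are not given in the sources used here. The authors also deposited a p-value per gene for their own comparison of the 3 genotypes, which was not used, except that all listed genes were seen to lie under 0.05. The authors used edgeR, which works on counts, so it was not run on FPKM.

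Values were taken as deposited, 1 was added, and log2 was taken. The contrast Tnfr2-/- minus Tnfr1-/- was fitted with limma 3.58.1 in R 4.3.3 (lmFit, eBayes with trend) over all 6 samples, and the script was tested on simulated data. No read counts were used, so no precision from depth is given. Positions are those of GENCODE M21, in which 8166 of 8191 symbols matched, and 50-base windows were compared between its transcripts. Promoter windows are from RefSeq.

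The comparison and the gene lists were chosen with earlier results of these data known. The genes named are Tnfrsf1b and Tnf, the 15 largest rises and 15 largest falls among calls without overlap, every call in a list, calls near the deleted genes, genes the study's text names, and the most abundant members of each list. Exceptions are that not all of the 3 most abundant members of each list and not all calls in a list have their values printed, and that genes set apart without a call were named after their values were seen. Some genes that this rule covers are not reported here. Alternatives tried were a pseudocount of 0.1, a mean of at least 1 FPKM, a model of the knockout samples only, a block for replicate numbers, no trend, 2 scalings, other fold thresholds, adjustment as for 25000 genes, other distances, and leaving out each sample. Python 3.11.15, pandas 2.3.3, NumPy 2.4.6, and matplotlib 3.10.9 served for counts and plots.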

Additional observations from a re-analysis of the deposited data

How the results depend on the processing

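None of the 119 genes that passed reversed its direction under the alternatives tried, but most of these could not have shown a reversal. The samples of all 119 did not overlap, so leaving out 1 sample or another pseudocount keeps the sign. The other models on the deposited scale use the same mean difference. Only the 2 scalings could have turned a direction. The balance of calls turned under the median-ratio scaling given above, with the replicate block (2 higher, 5 lower), and without Tnfr1-/- replicate 1 (0 and 2) or 2 (0 and 3). Of 64 named genes that did not pass, 10 changed sign under 1 or more alternatives and 31 passed under 1 or more. With median-ratio size factors and quantile normalization, Cd74 was at -0.14 and -0.27, Mapk9 at -0.065 and -0.028, and Tnfaip2 at -0.074 and -0.10, and with quantile normalization Spi1 was at -0.059. When each sample was left out, the difference ranged from -0.36 to 0.37 for Cd74, from -0.0060 to 0.52 for Cd80, from -0.33 to 0.030 for Cdkn1b, from -0.58 to 0.18 for Hp, from -0.25 to 0.0062 for Ltb, from -0.056 to 0.19 for Mapk9, from -0.25 to 0.066 for Scrib, from -0.19 to 0.33 for Tnfaip2, and from -0.43 to 0.036 for Wfdc17. The count of 119 genes became 228 with a mean of at least 1 FPKM, 0 with only the 4 knockout samples, 15 without trend, 208 with median-ratio size factors (105 shared with the 119), 238 with quantile normalization, 8 with adjustment as for 25000 genes, 218 without a fold threshold, 49 above a fold of 2, and 2 to 662 when each sample was left out. With a replicate block it became 7. The study had 2 independent experiments, and the labels do not say whether the same number marks the same experiment. Deviations of same-numbered Tnfr1-/- and Tnfr2-/- samples correlated at 0.046. The main fit held no block, and a pairing by experiment remains possible. The genes set apart numbered 978 with a pseudocount of 0.1, 95 above a fold of 2, and 375 to 893 when each knockout sample was left out, 893 of them without Tnfr2-/- replicate 1. Tnfrsf1b kept its difference of -2.09 with adjusted p-values of 0.157 with only the knockout samples, 0.0566 with the block, and 0.0514 without trend, and ranged from -2.36 to -1.83 when each sample was left out. Of 48 lists with a median, 18 had one that changed sign under 1 or more alternatives, among them those of TNF receptors, chemokines, chemokine receptors, and MHC genes. Near both deleted genes, 24 genes within 10 Mb were set apart and 11 passed the test. The cause of these changes was not tested, beyond the fewer samples or genes that an alternative uses. Leave-one-out counts of the genes set apart and of the lists, and the count of calls near the deleted genes, were chosen after seeing the data. Depth limits every value to an unknown degree.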
